A study of Mus musculus with 24 samples.

Results

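The genes of bile acid synthesis and conjugation were followed in mouse liver after furan and across 3 ways of keeping the tissue. The set was made of 10 genes chosen by name, with earlier results of these data known: Cyp7a1, Cyp8b1, Cyp27a1, Cyp7b1, Hsd3b7, Akr1d1, Acox2, Slc27a5, Baat and Nr0b2. All 10 were found among the 24015 gene symbols of the count table, and all 10 passed the low-count filter in every comparison. Livers came from female mice of the B6C3F1 hybrid, common in toxicology, bought at 5 to 6 weeks of age. Furan is a small volatile ring compound that is toxic to rodent liver. Furan animals were gavaged with 8 mg per kg body weight per day of furan in corn oil for 21 days, and control animals with corn oil only. Liver was taken 4 hours after the last dose, and each liver was divided into 3 pieces: frozen, fixed in formalin for 18 hours and embedded in paraffin (FFPE 18 h), or fixed for 3 weeks and embedded (FFPE 3 weeks). With 4 furan animals (numbers 41 to 44) and 4 control animals (numbers 2, 3, 4 and 6) this gave 24 libraries of ribosomal-RNA-depleted total RNA.

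Hepatocytes turn cholesterol into bile acids by a classic route, which starts with 7alpha-hydroxylation of cholesterol, and an alternative route, which starts with hydroxylation of the side chain. The ring and the side chain are then modified, and the acid is activated with coenzyme A and joined to taurine or glycine. In mouse liver, bile acids hold the pathway in check through the receptor FXR, which induces the repressor SHP, the product of Nr0b2, and SHP restrains Cyp7a1 and Cyp8b1.

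Library totals ranged from 37978435 to 49326373 counts in frozen tissue, 22889146 to 28054631 in FFPE 18 h tissue and 5560002 to 11019297 in FFPE 3 weeks tissue. The 10 genes together held 0.305 to 0.351% of the counts in frozen libraries, 0.238 to 0.283% in FFPE 18 h libraries and 0.180 to 0.230% in FFPE 3 weeks libraries. Frozen RNA had RNA integrity numbers above 8.9 and FFPE RNA 1.3 to 2.4, per the labels. Preservation cannot be told apart from extraction kit, number of sections (1 for FFPE 18 h, 2 for FFPE 3 weeks) and piece of liver. The hepatocyte markers Alb, Apoa1, Ttr, Serpina1a, Cyp2f2 and Tat were present in every group, none of them at 0. In bulk tissue, fewer cells of a type and less RNA per cell cannot be told apart.

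Promoters are shown for Cyp27a1 and Acox2, which passed the test with furan in FFPE 18 h tissue, and for the repressor gene Nr0b2 with Cyp8b1, a gene its product restrains. They are RefSeq sequences of build GRCm38.p6, 250 bases before to 50 bases after the start of transcription, written 5′ to 3′ on the gene's strand. Capitals mark matches to the motifs searched on both strands.
Cyp27a1, chr1:74713285-74713584, plus strand: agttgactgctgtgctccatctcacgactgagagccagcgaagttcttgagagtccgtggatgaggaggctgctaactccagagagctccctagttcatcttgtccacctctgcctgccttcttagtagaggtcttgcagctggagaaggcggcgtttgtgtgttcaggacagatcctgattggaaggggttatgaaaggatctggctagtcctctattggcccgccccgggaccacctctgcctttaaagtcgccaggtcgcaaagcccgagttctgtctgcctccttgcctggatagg
Acox2, chr14:8258970-8259269, minus strand: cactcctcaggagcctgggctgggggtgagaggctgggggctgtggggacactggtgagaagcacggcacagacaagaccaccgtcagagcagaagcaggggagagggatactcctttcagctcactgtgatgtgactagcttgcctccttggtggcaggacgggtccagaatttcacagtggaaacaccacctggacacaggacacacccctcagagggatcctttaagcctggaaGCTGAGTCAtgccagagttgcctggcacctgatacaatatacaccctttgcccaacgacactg
Cyp8b1, chr9:121916256-121916555, minus strand: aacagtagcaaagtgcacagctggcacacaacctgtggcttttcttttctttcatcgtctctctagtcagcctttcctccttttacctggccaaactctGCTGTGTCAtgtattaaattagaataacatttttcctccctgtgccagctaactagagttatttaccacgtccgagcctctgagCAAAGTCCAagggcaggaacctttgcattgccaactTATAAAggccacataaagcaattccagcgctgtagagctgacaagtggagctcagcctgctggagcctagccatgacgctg
Nr0b2, chr4:133553126-133553425, plus strand: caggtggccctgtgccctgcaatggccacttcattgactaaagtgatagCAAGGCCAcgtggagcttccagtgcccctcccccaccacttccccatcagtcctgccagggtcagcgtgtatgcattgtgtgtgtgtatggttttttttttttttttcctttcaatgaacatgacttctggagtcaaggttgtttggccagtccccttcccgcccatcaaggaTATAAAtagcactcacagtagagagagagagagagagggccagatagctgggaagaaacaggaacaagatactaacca

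The motifs were CAAAGTCCA, a core bound by HNF4A, CAAGGTCA and CAAGGCCA, half-sites bound by LRH-1, TGACNNNGC, the core of the antioxidant response element, and TATAAA, the TATA box. In Cyp8b1 the HNF4A core lies at -67 to -59 from the start and TATAAA at -31 to -26. The Cyp8b1 promoter also holds TGACNNNGC on the opposite strand at -151 to -143, and the Acox2 promoter shown holds it on the opposite strand at -13 to -5. The table has 2 Acox2 promoters, from different starts, and in the other the same site lies at -193 to -185. Nr0b2 holds CAAGGCCA at -201 to -194 and TATAAA at -28 to -23, and no searched motif was found in the Cyp27a1 window. Of 32851 mouse promoters of the same length, 0.475% hold CAAAGTCCA, 2.4% CAAGGCCA, 1.56% CAAGGTCA, 13.6% TATAAA and 12.4% TGACNNNGC. A match describes the sequence and says nothing of binding in these livers. Cyp7a1, Cyp7b1, Slc27a5 and Baat have no entry in the promoter table.

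Levels are given as counts-per-million values (CPM), scaled for library composition over all 24 libraries. Between genes they were compared per kilobase of exon (CPM per kb), as the mean of 4 animals. In frozen control liver Slc27a5, which encodes the bile acid coenzyme A ligase, was highest at 588 ± 19.0 CPM per kb (SD, n = 4). Hsd3b7 followed at 321 ± 57.9, Cyp27a1 at 303 ± 38.7, Cyp8b1 at 155 ± 54.4, Baat at 147 ± 33.6 and Akr1d1 at 137 ± 32.1 CPM per kb. Lower levels were those of Cyp7a1 at 81.1 ± 49.1, Acox2 at 75.1 ± 5.65, Cyp7b1 at 38.2 ± 14.6 and Nr0b2 at 5.90 ± 3.24 CPM per kb. Ranges of neighbours overlapped between Hsd3b7 and Cyp27a1, and along the order from Cyp8b1 through Baat, Akr1d1 and Cyp7a1 to Acox2. They did not overlap between Slc27a5 and Hsd3b7, Cyp27a1 and Cyp8b1, Acox2 and Cyp7b1, or Cyp7b1 and Nr0b2. Slc27a5 had the highest mean in 5 of the 6 groups, though in control FFPE 3 weeks tissue, at 181 ± 16.4 CPM per kb against 180.4 ± 37.4 for Hsd3b7, the ranges overlapped, and Hsd3b7 led in furan FFPE 3 weeks tissue at 167 ± 2.66 CPM per kb, against 145 ± 9.41 for Slc27a5.

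**Figure D1:**
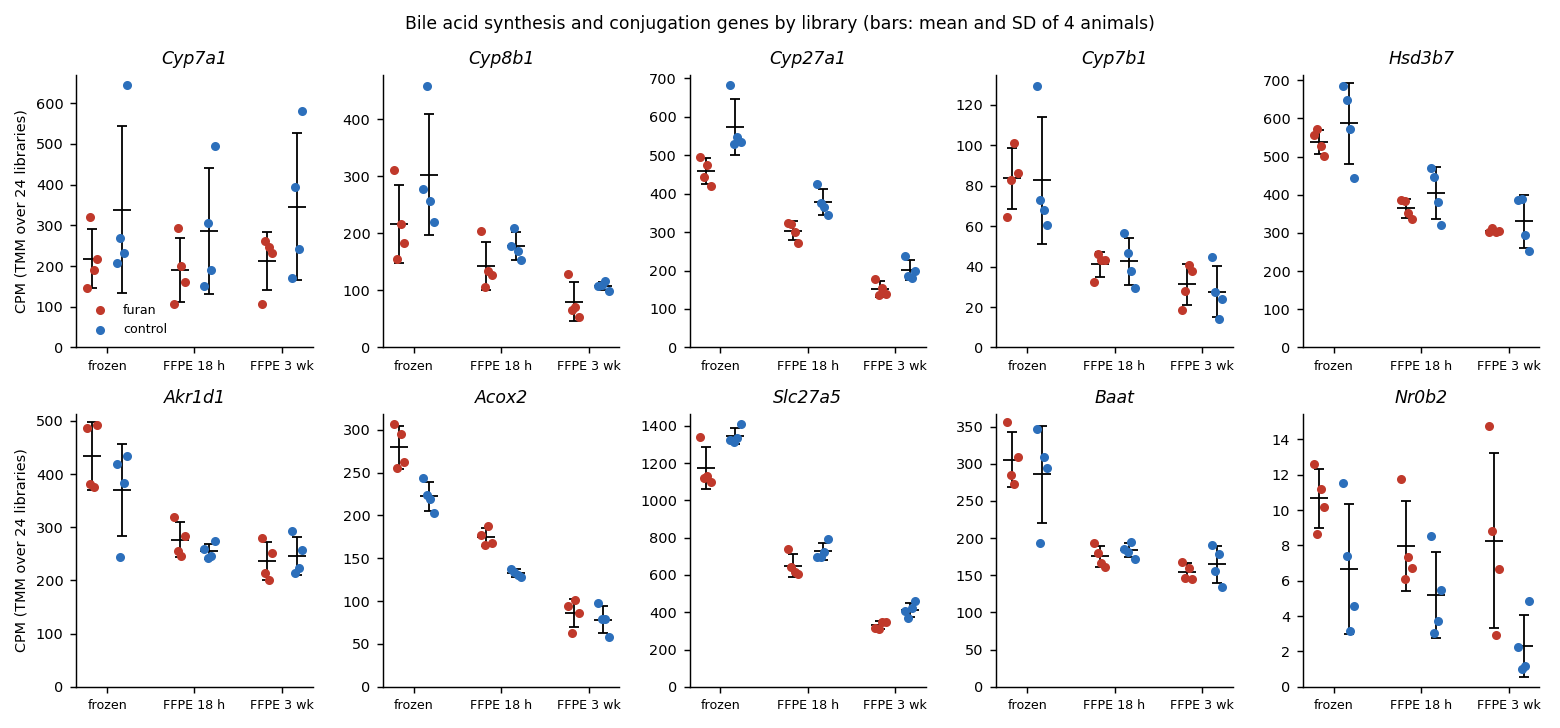
Level of each of the 10 genes in every library, in CPM (scaled over all 24 libraries; linear axis from 0), with furan animals in red to the left of control animals in blue for each preservation; points are animals, and black bars give the mean and SD of 4. Points of Acox2 and Cyp27a1 do not overlap between furan and control in frozen and FFPE 18 h tissue, and the highest Cyp7a1 point of each preservation is control animal 6.

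With furan, few of the bile acid genes moved by more than the animals' spread. In FFPE 18 h tissue Acox2 rose and Cyp27a1 fell, 2 of 10 genes, in a comparison where edgeR's quasi-likelihood test called 15.5% of all genes tested (7.82% higher, 7.72% lower). In frozen tissue 0 of 10 genes were called, against 2.78% of all genes tested (1.57% higher, 1.2% lower), and in FFPE 3 weeks tissue 0 of 10, against 2.58% (1.07% higher, 1.51% lower). Without adjustment 2 of the 10 had p under 0.05 in frozen tissue and 3 in FFPE 3 weeks tissue. DESeq2 called 0 in frozen tissue, 2 in FFPE 18 h tissue and 1 in FFPE 3 weeks tissue. The median log2 fold change of the 10 genes, furan over control, was -0.05 in frozen, -0.10 in FFPE 18 h and -0.08 in FFPE 3 weeks tissue, beside -0.01, -0.00 and 0.01 over all genes tested. The 3 comparisons use the same animals and are not independent.

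Cyp7a1 encodes cholesterol 7alpha-hydroxylase, the rate-limiting enzyme of the classic route. In frozen tissue it had 147, 320.1, 190.1 and 216 CPM in furan animals 41, 42, 43 and 44, against 209, 269, 232 and 644 CPM in control animals 2, 3, 4 and 6. FFPE 18 h pieces of the same animals gave 108, 294, 199.97 and 160.4 CPM with furan, against 151, 305, 190.1 and 496 CPM in control. FFPE 3 weeks pieces gave 108, 263, 248 and 233 CPM with furan, against 170.1, 393, 241 and 580.0 CPM in control. The groups overlapped in each preservation, furan animal 41 was lowest and control animal 6 highest in all 3 pieces. The log2 fold change was -0.63 ± 0.34 in frozen (SE; edgeR adjusted p = 0.36), -0.57 ± 0.48 in FFPE 18 h (adjusted p = 0.514) and -0.68 ± 0.48 in FFPE 3 weeks tissue (adjusted p = 0.7). Without control animal 6 it was -0.12, -0.17 and -0.32 in the same order, the smallest falls when single animals were left out. The largest such falls had log2 fold changes of -0.88, -0.87 and -0.91, and Cyp7a1 was not called in any of these fits.

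Cyp8b1 encodes the 12alpha-hydroxylase, which sets the share of cholic acid. Frozen pieces had 311, 155, 216 and 183 CPM in furan animals, against 278, 458, 256 and 219.6 CPM in control animals. FFPE 3 weeks pieces had 129.6, 66.2, 71.8 and 52.8 CPM in furan animals, against 108, 109, 116 and 98.3 CPM in control animals. Furan animal 41 was the highest of its group in all 3 pieces, and in FFPE 3 weeks tissue it alone stood above the control animals. Log2 fold changes were -0.49 ± 0.25 in frozen (adjusted p = 0.333), -0.30 ± 0.21 in FFPE 18 h (adjusted p = 0.424) and -0.42 ± 0.20 in FFPE 3 weeks tissue (adjusted p = 0.43). Without furan animal 41 edgeR called Cyp8b1 lower in FFPE 18 h (-0.54 ± 0.11, adjusted p = 0.00739) and FFPE 3 weeks tissue (-0.75 ± 0.15, adjusted p = 0.00619). Without control animal 3 the frozen value was -0.22, without furan animal 42 that of FFPE 18 h tissue was -0.19, and without furan animal 44 that of FFPE 3 weeks tissue was -0.26, none of them called.

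Cyp27a1 encodes the mitochondrial sterol 27-hydroxylase, which starts the alternative route and also oxidises the side chain in the classic route. Frozen pieces had 495, 443, 475 and 418 CPM in furan animals, against 682, 528, 546 and 535 CPM in control animals. FFPE 18 h pieces had 324, 321, 300.4 and 271 CPM with furan, against 424, 376, 366 and 343 CPM in control. After 3 weeks of fixation there were 179, 135, 154 and 138 CPM with furan, against 239, 187, 181 and 199 CPM in control. Every furan animal lay below every control animal in each of the 3 preservations. Groups did not overlap for 2 of the 10 genes in each preservation, and over all genes tested this held for 13.5% in frozen, 20% in FFPE 18 h and 8.68% in FFPE 3 weeks tissue. The log2 fold change of Cyp27a1 was -0.30 ± 0.07 in FFPE 18 h tissue (adjusted p = 0.0101), a fold of 0.811. It was -0.32 ± 0.12 in frozen (adjusted p = 0.184) and -0.39 ± 0.12 in FFPE 3 weeks tissue (adjusted p = 0.0807), short of the threshold.

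Cyp7b1, the oxysterol 7alpha-hydroxylase that follows Cyp27a1 in the alternative route, had log2 fold changes of 0.02 ± 0.23, -0.04 ± 0.21 and 0.19 ± 0.30 in frozen, FFPE 18 h and FFPE 3 weeks tissue (adjusted p from 0.907 to 0.97). Its frozen levels were 64.5 to 101 CPM in furan animals and 60.4 to 129 CPM in control animals. Furan animals thus lay inside the control range.

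Of the genes for ring modification, Hsd3b7 encodes the 3beta-hydroxysteroid dehydrogenase shared by both routes and Akr1d1 the 5beta-reductase. Hsd3b7 had 500.2 to 571 CPM in frozen furan pieces and 444 to 683 CPM in frozen control pieces, and its log2 fold changes were -0.12 ± 0.14, -0.14 ± 0.10 and -0.09 ± 0.12 in the 3 preservations. Akr1d1 had 375 to 492 CPM in frozen furan pieces and 244 to 435 CPM in frozen control pieces, with log2 fold changes of 0.23 ± 0.18, 0.12 ± 0.08 and -0.04 ± 0.12. Without control animal 3, the lowest frozen library, the frozen value of Akr1d1 was 0.08. None of these passed the test (adjusted p from 0.311 to 0.96), and for both genes the treatments overlapped.

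Acox2 encodes the peroxisomal branched-chain acyl-CoA oxidase, which shortens the side chain. Frozen pieces had 306, 255, 295 and 262 CPM in furan animals, against 244, 224, 219 and 203 CPM in control animals. FFPE 18 h pieces had 177, 165, 188 and 168 CPM with furan, against 138, 134, 131 and 128 CPM in control. In both preservations every furan animal lay above every control animal. FFPE 3 weeks pieces had 94.0, 63.3, 101 and 86.1 CPM with furan, against 97.6, 79.3, 78.6 and 58.3 CPM in control, and here the treatments overlapped. The log2 fold change was 0.41 ± 0.06 in FFPE 18 h tissue (adjusted p = 0.000233), a fold of 1.33. It was 0.33 ± 0.11 in frozen (adjusted p = 0.138) and 0.15 ± 0.16 in FFPE 3 weeks tissue (adjusted p = 0.833).

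Slc27a5 activates bile acids with coenzyme A, and Baat joins them to taurine or glycine. Slc27a5 had 1339.9, 1122, 1131 and 1099.7 CPM in frozen furan pieces, against 1322, 1316, 1334 and 1410.0 CPM in frozen control pieces. In FFPE 3 weeks tissue it had 315, 309.9, 349.8 and 349 CPM with furan, against 405, 368, 423 and 458 CPM in control. The furan group lay below the control group in FFPE 3 weeks tissue, while furan animal 41 reached into the control range in frozen tissue. Its log2 fold change was -0.20 ± 0.11 in frozen (adjusted p = 0.356), -0.15 ± 0.07 in FFPE 18 h (adjusted p = 0.178) and -0.31 ± 0.10 in FFPE 3 weeks tissue (adjusted p = 0.116). DESeq2 called Slc27a5 in FFPE 3 weeks tissue (adjusted p = 0.0398). Baat had 273 to 356 CPM in frozen furan pieces and 194 to 346 CPM in frozen control pieces, and its log2 fold changes lay between -0.07 and 0.10 with adjusted p of 0.649 or above. Without control animal 3 the frozen value of Baat was -0.05.

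Nr0b2 was the gene of the set with the lowest level. Frozen pieces had 12.6, 8.66, 11.2 and 10.2 CPM in furan animals, against 11.5, 7.41, 3.17 and 4.60 CPM in control animals. FFPE 18 h pieces had 11.7, 6.11, 7.32 and 6.71 CPM with furan, against 8.51, 3.05, 3.75 and 5.45 CPM in control. After 3 weeks of fixation there were 14.7, 8.80, 2.90 and 6.64 CPM with furan, against 2.27, 1.00, 1.16 and 4.83 CPM in control. The groups overlapped in each preservation, and control animal 2 sat among the furan animals in the frozen and FFPE 18 h pieces. Nr0b2 had a log2 fold change of 0.69 ± 0.33 in frozen (adjusted p = 0.295), 0.63 ± 0.33 in FFPE 18 h (adjusted p = 0.24) and 1.85 ± 0.66 in FFPE 3 weeks tissue (adjusted p = 0.165). Without control animal 2 it was 1.08 in frozen (adjusted p = 0.063) and 0.97 in FFPE 18 h tissue (adjusted p = 0.0221), while it was 0.45 in frozen tissue without control animal 4 and 0.37 in FFPE 18 h tissue without furan animal 41. The FFPE 3 weeks libraries held 31 to 167 counts of Nr0b2 in furan animals and 9 to 45 in control animals.

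**Figure D2:**
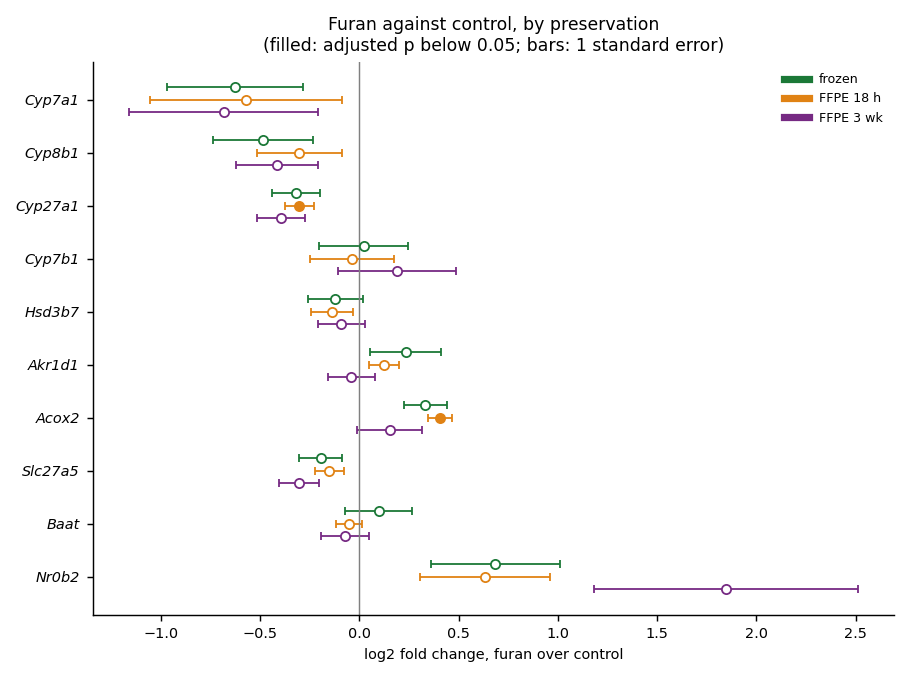
Log2 fold change of furan over control for the 10 genes (rows) in frozen, FFPE 18 h and FFPE 3 weeks tissue (colours); bars are 1 standard error, and filled points have an edgeR adjusted p below 0.05. Filled points are Acox2 at 0.41 and Cyp27a1 at -0.30, both in FFPE 18 h tissue.

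Whether the measured furan difference varied between preservations of the same livers was tested over all genes. For FFPE 18 h minus frozen 0 of 10 genes were called by edgeR and 0 by DESeq2, with 0 at an unadjusted p under 0.05, beside 0% of all genes tested. For FFPE 3 weeks minus frozen the counts were again 0, 0 and 0 of 10, beside 0.0268%. These fits did not pair the pieces of a liver, so differences between livers stayed in their spread. With the animal as replicate block the calls of the 10 genes here were unchanged. The absence of a call does not show that the furan differences were equal. The difference for Acox2 was 0.07 ± 0.18 for FFPE 18 h minus frozen and -0.19 ± 0.18 for FFPE 3 weeks minus frozen. Nr0b2 had the largest difference of the set, 1.16 ± 0.64 for FFPE 3 weeks minus frozen (adjusted p = 0.661; 95% interval -0.10 to 2.42).

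The calls differed between the separate fits and a fit over all 24 libraries. Over all 24 libraries Acox2 had an adjusted p of 0.105 and Cyp27a1 of 0.174, so that 0 were called in FFPE 18 h tissue, and 3 in FFPE 3 weeks tissue (Cyp27a1, Slc27a5 and Nr0b2; adjusted p = 0.016, 0.0211 and 0.0134). Without furan animal 41 the counts were 4 in FFPE 18 h tissue (Cyp8b1, Cyp27a1, Acox2 and Slc27a5) and 2 in FFPE 3 weeks tissue (Cyp8b1 and Cyp27a1).

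Marker lists of liver zones and other cell types were read beside the furan effect. The summed level of 6 pericentral hepatocyte markers (Cyp2e1, Glul, Oat, Cyp1a2, Slc1a2 and Rgn) was 11550 to 12544 CPM in frozen furan pieces and 15374 to 20125 CPM in frozen control pieces. It was 7839 to 8828 CPM with furan and 11157 to 12649 CPM in control FFPE 18 h pieces. Most of that sum was Cyp2e1, with a frozen mean of 7001 CPM in furan and 11496 CPM in control. Rgn had a frozen mean of 2174 CPM in furan and 2315 CPM in control. A fall was called for 2, 5 and 4 of the 6 markers in frozen, FFPE 18 h and FFPE 3 weeks tissue. Of all genes tested, 1.2%, 7.72% and 1.51% were called lower in that order. Sinusoidal endothelial markers summed to 507 to 538 CPM in frozen furan pieces and 643 to 708 CPM in frozen control pieces, and 1, 5 and 0 of the 6 were called lower in the same order. Kupffer cell markers summed to 416 to 454 CPM in frozen furan pieces and 407 to 840.0 CPM in frozen control pieces, control animal 4 being the highest. EdgeR called 0 of the 7 in each preservation, beside 2.78%, 15.5% and 2.58% of all genes tested in either direction. The 6 periportal hepatocyte markers summed to 4355 to 5069 CPM in frozen furan pieces and 4934 to 7346 CPM in frozen control pieces. Their median log2 fold change was -0.02, 0.06 and -0.06 in the 3 preservations. None was called in frozen, 2 rose and 1 fell in FFPE 18 h, and 1 fell in FFPE 3 weeks tissue. Of the 6 hepatocyte markers 1 fell, in FFPE 18 h tissue, and of the 5 stellate cell markers edgeR called 0 in each preservation. The part of these cell types in the values of the bile acid genes was not tested.

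The rest of the pathway was read from 3 lists: other enzymes of synthesis, regulators, and carriers for uptake and export. Of 11 other enzymes tested, 1 fell in frozen, 6 in FFPE 18 h and 2 in FFPE 3 weeks tissue, and 0 rose in any, while 1.2%, 7.72% and 1.51% of all genes tested fell. Their median log2 fold change was -0.14, -0.28 and -0.12 in the same order, beside -0.01, -0.00 and 0.01 over all genes tested. Cyp46a1, the cholesterol 24-hydroxylase, fell in all 3, with 49.3, 30.5, 36.2 and 40.5 CPM in frozen furan pieces, against 63.2, 125, 98.1 and 99.0 CPM in frozen control pieces. Every furan animal was below every control animal there, and the log2 fold change was -1.30 ± 0.20 in frozen (adjusted p = 0.00826), -1.32 ± 0.24 in FFPE 18 h (adjusted p = 0.0127) and -1.35 ± 0.16 in FFPE 3 weeks tissue (adjusted p = 4.5e-06). In FFPE 18 h tissue Acaa1a, a peroxisomal thiolase, fell by 0.48 in log2 units (adjusted p = 0.00124), Amacr, the racemase of the side chain, fell by 0.41 (adjusted p = 0.00284) and Slc27a2, an acyl-CoA synthetase, fell by 0.37 (adjusted p = 0.00296). Slc27a2 also fell in FFPE 3 weeks tissue, by 0.48 (adjusted p = 0.00155).

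Of 16 regulators, 0 were called in frozen tissue and 0 in FFPE 3 weeks tissue by edgeR, and in FFPE 18 h tissue 1 rose and 4 fell, beside 7.82% and 7.72% of all genes tested. The rise was Hnf4a, a nuclear receptor that activates Cyp7a1 and Cyp8b1, at 0.30 ± 0.06 (adjusted p = 0.00326). Rxra, the partner of FXR, fell by 0.32 (adjusted p = 0.00152) and Dbp, a clock output factor, fell by 0.45 (adjusted p = 0.00644). The FXR gene Nr1h4 and the LRH-1 gene Nr5a2, named for their place in the pathway, were not called in any of the 3 preservations.

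Among carriers, Slc10a2, the apical sodium-dependent bile acid transporter, had 19.1, 25.6, 32.5 and 28.8 CPM in frozen furan pieces, against 9.71, 14.7, 9.25 and 8.02 CPM in frozen control pieces. The groups did not overlap, and Slc10a2 rose by 1.35 ± 0.21 on the log2 scale in frozen (adjusted p = 0.00874) and by 1.54 ± 0.27 in FFPE 18 h tissue (adjusted p = 0.004). In FFPE 3 weeks tissue its estimate was 1.69 ± 0.63 (adjusted p = 0.196). The ileal genes Fabp6 and Fgf15 had 0 counts in frozen furan pieces and 2 and 9 counts in all in frozen control pieces. Cholangiocyte markers, of cells that also use Slc10a2, summed to 44.05 to 60.9 CPM in frozen furan and 48.2 to 58.9 CPM in frozen control pieces. Most of that sum was Spp1, which other cells also express, with a mean of 46.9 CPM in furan and 50.1 CPM in control, and the other 5 markers averaged 0.193 to 1.54 CPM in furan and 0.143 to 1.48 CPM in control. Slc10a1, the sodium-dependent uptake carrier of hepatocytes, fell by 0.43 in FFPE 18 h (adjusted p = 0.0011) and by 0.37 in FFPE 3 weeks tissue (adjusted p = 0.0326). Slco1b2, an uptake carrier, fell by 0.40 in FFPE 18 h tissue (adjusted p = 0.000741), while the export pumps Abcc2 and Abcc4 rose there by 0.41 (adjusted p = 0.002) and 0.68 (adjusted p = 0.00191). Abcb11, the bile salt export pump, fell by 0.40 in FFPE 3 weeks tissue (adjusted p = 0.0177). In all, 1 of 13 carriers rose in frozen tissue, 4 of 12 rose and 2 fell in FFPE 18 h tissue, and 2 of 12 fell in FFPE 3 weeks tissue. Over all genes tested 1.57% rose in frozen tissue, 7.82% rose and 7.72% fell in FFPE 18 h tissue, and 1.51% fell in FFPE 3 weeks tissue.

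Most of the set differed between fixed and frozen pieces, and in 1 direction. Compared with frozen pieces of the same livers, 8 of 10 genes were lower in FFPE 18 h pieces and 9 of 10 in FFPE 3 weeks pieces, where 18.7% and 29.4% of all genes tested were lower (35.1% and 55% called in either direction). The calls in this paragraph come from a fit that did not pair the pieces of a liver. Those with the animal as replicate block are given further on. None of the 10 was called higher, beside 16.3% and 25.5% of all genes tested. FFPE 3 weeks pieces were lower than FFPE 18 h pieces for 5 of 10 genes and higher for 0, beside 20.4% and 14.9% of all genes tested (35.3% in either direction). All 8 fixed pieces lay below all 8 frozen pieces for 3 genes after 18 h, beside 8.9% of all genes tested, and for 7 after 3 weeks, beside 11.1%. FFPE 3 weeks pieces all lay below FFPE 18 h pieces for 3 genes, beside 5.42%. The median log2 fold change of the 10 was -0.64 for FFPE 18 h, -1.20 for FFPE 3 weeks, both over frozen, and -0.53 for FFPE 3 weeks over FFPE 18 h, beside 0.02, -0.04 and -0.06 over all genes tested.

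Slc27a5 had the largest fall of the set after 3 weeks. It averaged 331 ± 21.5 CPM in furan and 414 ± 37.4 CPM in control FFPE 3 weeks pieces (SD, n = 4 each), against 1173 ± 112 and 1346 ± 43.5 CPM in frozen pieces. No FFPE 3 weeks piece reached the lowest frozen piece. The log2 fold change over frozen was -0.87 ± 0.06 in FFPE 18 h (adjusted p = 2.94e-12) and -1.76 ± 0.07 in FFPE 3 weeks tissue (adjusted p = 5.58e-20).

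For FFPE 3 weeks over frozen tissue the log2 fold change was -1.60 for Acox2, -1.55 for Cyp27a1, -1.496 for Cyp7b1 and -1.46 for Cyp8b1. Smaller falls had log2 fold changes of -0.95 for Nr0b2, -0.89 for Baat, -0.82 for Hsd3b7 and -0.73 for Akr1d1, and adjusted p of these 8 genes ranged up to 0.0134. Of the genes called for FFPE 3 weeks over FFPE 18 h, the log2 fold change was -0.95 for Cyp27a1, -0.90 for Slc27a5, -0.88 for Acox2, -0.78 for Cyp8b1 and -0.27 for Hsd3b7. Akr1d1 at -0.14 ± 0.10 and Baat at -0.17 ± 0.09 were not called here, and each was lower in 7 of 8 animals. With the animal as replicate block on the 16 libraries of this pair, chosen after seeing the data, both were called (adjusted p = 0.0242 and 0.0136), and with the block over all 24 libraries neither was (adjusted p = 0.0811 and 0.0627). For FFPE 18 h over frozen their log2 fold changes were -0.60 and -0.72, lower in 8 of 8 animals. The call for Nr0b2 over frozen was lost without animal 2, 3 or 43 (adjusted p = 0.0617, 0.0506 and 0.0503). The call for Hsd3b7 between the fixations was lost without animal 4, 41 or 42 (adjusted p = 0.0542, 0.0626 and 0.0507), and with DESeq2 (adjusted p = 0.0688).

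Cyp7a1 was the gene of the set that no unblocked comparison called. Its log2 fold change over frozen was -0.22 ± 0.33 in FFPE 18 h (adjusted p = 0.665) and -0.00 ± 0.33 in FFPE 3 weeks tissue (adjusted p = 0.994; 95% interval -0.66 to 0.65). With the animal as replicate block, which takes out the differences between livers, Cyp7a1 was called lower in FFPE 18 h over frozen at -0.24 ± 0.08 (adjusted p = 0.0249). With that block it was called higher in FFPE 3 weeks over FFPE 18 h at 0.23 ± 0.08 (adjusted p = 0.0336), and over frozen it stood at -0.01 ± 0.08 (adjusted p = 0.918). The block also called Cyp7b1 lower in FFPE 3 weeks over FFPE 18 h, at -0.56 ± 0.11 (adjusted p = 0.000167), against -0.51 ± 0.21 without it (adjusted p = 0.0611).

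Within livers, FFPE 3 weeks minus frozen differences of Cyp7a1 ran from -0.45 to 0.54 on the log2 scale, lower in 4 animals and higher in 4. Those of Slc27a5 ran from -2.09 to -1.62 and those of Cyp27a1 from -1.71 to -1.43. The other 8 genes besides Cyp7a1 and Nr0b2 were lower in all 8 animals, and Nr0b2 was lower in 5. In every animal the difference of Cyp7a1 was above the median of the other 9 genes, by 0.81 to 2.04 for FFPE 3 weeks over frozen and by 0.16 to 0.81 for FFPE 18 h over frozen. This last measure was chosen after the values were seen and is given without a test.

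The summed level of the 6 hepatocyte markers was 48451 to 62708 CPM in FFPE 3 weeks pieces, 85334 to 103702 CPM in FFPE 18 h pieces and 140385 to 169593 CPM in frozen pieces. Most of that sum was Alb, with a mean of 144842 CPM in frozen furan and 132503 CPM in frozen control pieces. All 6 markers were called lower in both fixations over frozen, with a median log2 fold change of -0.65 in FFPE 18 h and -1.14 in FFPE 3 weeks tissue. Of the 7 Kupffer cell markers 5 were called lower in each fixation. Periportal hepatocyte markers had 6 of 6 lower in each, pericentral ones 5 lower and 1 higher. Cholangiocyte markers had 1 of 6 higher and 1 lower in each. Lymphocyte markers had 0 of 5 called in FFPE 18 h and 1 lower in FFPE 3 weeks tissue. Regulators had 5 of 16 higher and 3 lower in FFPE 18 h, and 4 higher and 7 lower in FFPE 3 weeks tissue. Other synthesis enzymes had 8 and 9 of 11 lower and 0 higher. Over frozen, 18.7% of all genes tested were lower and 16.3% higher in FFPE 18 h tissue. In FFPE 3 weeks tissue the shares were 29.4% and 25.5%. Cyp7a1 has the longest exon sequence of the set, 4.17 kb, and the lowest GC content, 39.7%. Across the 10 genes, which are not replicates, Spearman's rho of GC content with the FFPE 3 weeks minus FFPE 18 h difference was -0.66, with the FFPE 3 weeks minus frozen difference -0.41 and with the FFPE 18 h minus frozen difference 0.09. Exon length gave rho of 0.25, 0.03 and -0.13 in the same order. The part of RNA length, base composition and cell makeup in these differences was not tested.

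**Figure D3:**
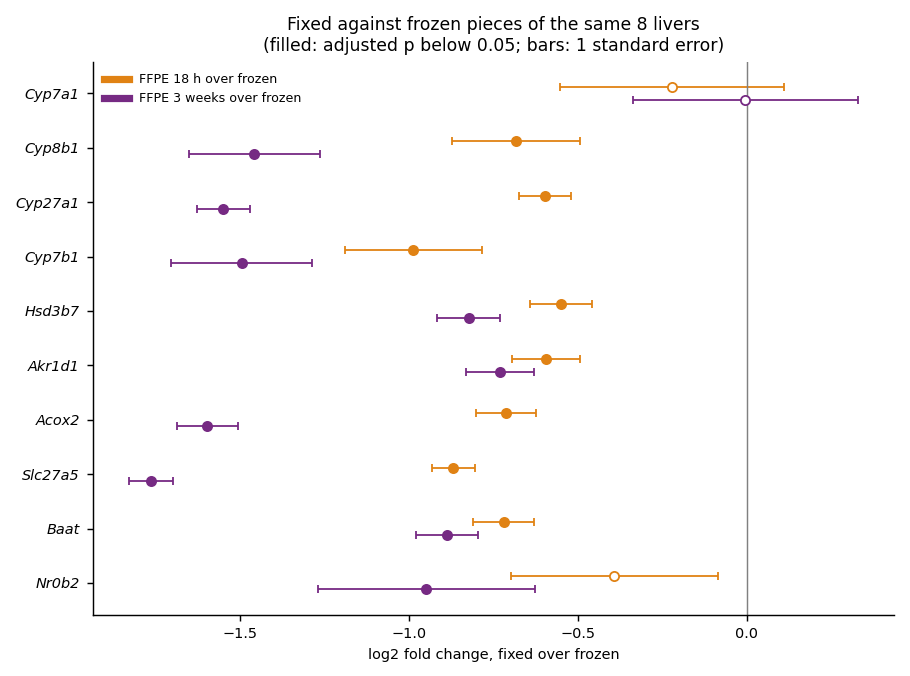
Log2 fold change of fixed over frozen pieces of the same 8 livers for the 10 genes (rows), for FFPE 18 h and FFPE 3 weeks tissue (colours), without the animal block; bars are 1 standard error, and filled points have an edgeR adjusted p below 0.05. Open points are Cyp7a1 at -0.22 and -0.00 and Nr0b2 at -0.39 in FFPE 18 h tissue.

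Whether an animal kept its place across the pieces of its liver was asked with Pearson's r and Spearman's rho of log2 CPM over the 8 animals, for 10 genes and 3 pairs of preservations, 30 relations. For 8 of the 30 the furan and control animals did not overlap in a piece, and no pooled value is given for them. Of the other 22, 11 passed an exact permutation test over pairings, two-sided, with Benjamini-Hochberg adjustment over the 30. With values centred on the treatment mean and pairings permuted within treatment, 13 of 30 passed.

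For Cyp7a1, r was 0.93 between FFPE 18 h and frozen pieces (exact permutation p = 0.000794, adjusted p = 0.0034; rho 0.83, p = 0.0154, adjusted p = 0.0308). Between FFPE 3 weeks and FFPE 18 h pieces r was 0.95 (exact permutation p = 2.48e-05, adjusted p = 0.000744, the smallest p of this test; rho 1.00, p = 4.96e-05). Between FFPE 3 weeks and frozen pieces r was 0.88 (exact permutation p = 0.00531, adjusted p = 0.0133; rho 0.83, p = 0.0154, adjusted p = 0.0308). Without animals 6 and 41, farthest from the median, r was 0.81, 0.83 and 0.51 in the order just given, so that the last relation was weaker among the other animals. Animals ordered by Cyp7a1 in FFPE 18 h tissue thus had the same order in FFPE 3 weeks tissue.

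Hsd3b7 had r of 0.98 between FFPE 18 h and frozen pieces (exact permutation p = 0.000149, adjusted p = 0.00149; rho 0.90, p = 0.00456), and 0.99 without animals 6 and 2. For Cyp8b1 r was 0.94 (exact permutation p = 0.000397, adjusted p = 0.00238; rho 1.00, p = 4.96e-05), and 0.97 without animals 3 and 42. Baat gave r of 0.21 between FFPE 18 h and frozen pieces (exact permutation p = 0.648, adjusted p = 0.648; rho 0.52, p = 0.197), and 0.41 without animals 3 and 41. In Baat the frozen piece of control animal 3 was low, 194 CPM against 182 CPM in its FFPE 18 h piece, while the other control animals had 294 to 346 CPM frozen. Beyond the set, deviations of that frozen library from group means had r of 0.04 and -0.01 with those of its 18 h and 3 weeks pieces.

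**Figure D4:**
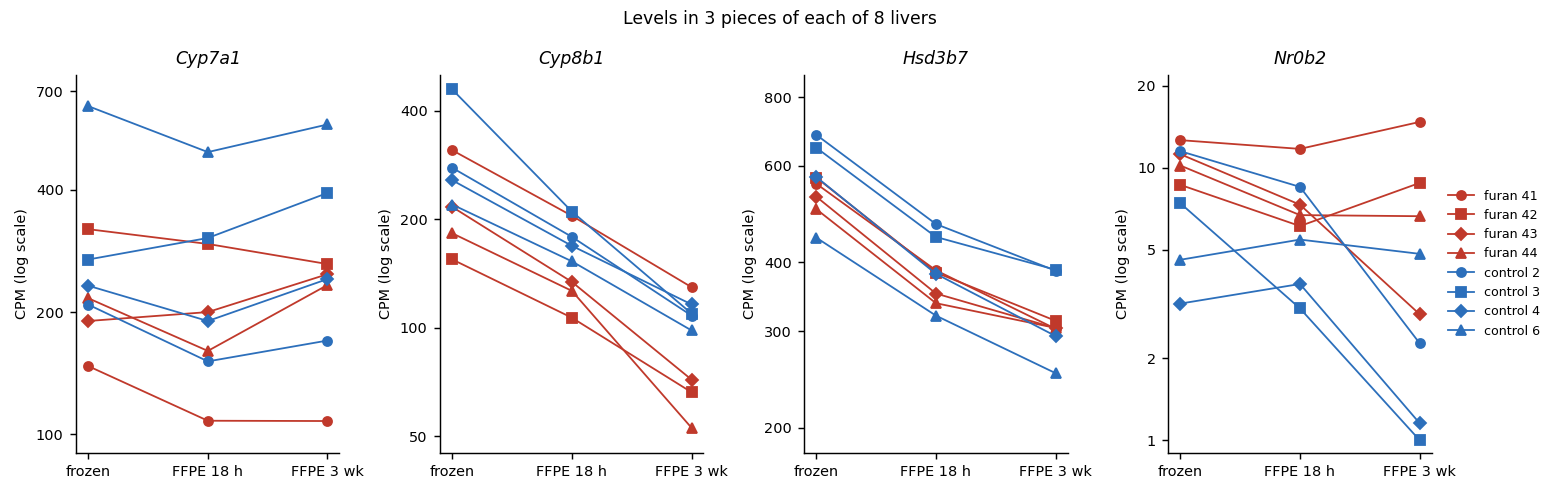
Level of Cyp7a1, Cyp8b1, Hsd3b7 and Nr0b2 (CPM, log axis) in the 3 pieces of each of 8 livers; each line is an animal, furan in red and control in blue. Lines of Cyp7a1 have control animal 6 on top in all 3 pieces, at 644, 496 and 580.0 CPM, and furan animal 41 at the bottom, while those of Cyp8b1 and Hsd3b7 fall in every animal.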

How the data were processed

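Total RNA of 24 liver libraries, depleted of ribosomal RNA, was sequenced by the authors, per the labels' protocols. Per the submitters' processing notes CASAVA 1.8.2, STAR 2.3.0 and featureCounts 1.4.4 were used with build mm9. Gene models, strand setting and treatment of multi-mapping reads are not given in the sources used here, so reads of overlapping genes cannot be told apart. The deposited table holds raw counts per gene symbol, of which 4185 of 24015 had no count in any library.

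The test was that of edgeR 4.0.16 in R 4.3.3 (scaling by TMM, filterByExpr, robust quasi-likelihood test, two-sided, Benjamini-Hochberg over all genes tested, adjusted p below 0.05 called). Furan effects were fitted separately in frozen, FFPE 18 h and FFPE 3 weeks libraries, 4 against 4 animals. Preservations, 8 against 8 libraries, and the differences of the furan effect were fitted over all 24. CPM and log2 CPM (prior count 2) were scaled by TMM over all 24 libraries. Levels per kb use the exons of GENCODE transcripts with a RefSeq accession (GRCm38). Log2 fold changes are given with SE, and 95% intervals are normal. Scripts were tested on simulated data.

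Same-numbered libraries are pieces of 1 liver, per the labels' protocols, so the numbers pair the samples. Deviations from group means of same-numbered libraries had r from -0.01 to 0.45, and 22 of 24 matched their own animal best. The pairs that did not were those of the frozen piece of control animal 3. Its r was 0.04 with the FFPE 18 h piece and -0.01 with the FFPE 3 weeks piece. That library had counts for 15249 genes, against 16045 to 16781 in the other frozen libraries. The animal as replicate block was an alternative, as were DESeq2 1.42.0 (size factors, test), no low-count filter, thinning to 5560002 counts (seed 1), a fit over all 24 libraries and leaving out each library or animal. A block fitted on the 16 libraries of a pair of preservations was added after seeing the data.

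The 10 genes, the lists and the tests were chosen with earlier results of these data known. All 10 are named, with up to 4 genes of smallest p per pathway list and furan comparison, and the 5 genes most correlated with Cyp7a1, Cyp8b1 or Nr0b2; some of the genes this rule picks are not reported here. Promoters come from RefSeq (GRCm38.p6).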

Additional observations from a re-analysis of the deposited data

Results flagged for a closer look

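In each group of 4 animals the gap of the highest or lowest library to its neighbour was set against the group's range. Of 60 groups checked (10 genes in 6 groups), 4 had a library standing apart beyond Dixon's 95% critical value, and chance alone marks about 1 group in 20. Cyp7a1 in frozen control liver had 644 CPM in animal 6, and the next animal had 269 CPM. Cyp27a1 in frozen control liver had 682 CPM in animal 2, and the next animal had 546 CPM. Slc27a5 in frozen furan liver had 1339.9 CPM in animal 41, and the next animal had 1131 CPM. Hsd3b7 in furan FFPE 3 weeks tissue had 313 CPM in animal 42, and the next animal had 304 CPM, in a group whose whole range was narrow.

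Animal 6 was also the highest control for Cyp7a1 in FFPE 18 h and FFPE 3 weeks tissue, and animal 2 the highest control for Cyp27a1 in both. Without control animal 2 the furan effect on Cyp27a1 was -0.23 in frozen tissue (adjusted p = 0.281), and without furan animal 41 that on Slc27a5 was -0.26 (adjusted p = 0.3). None of the 20 tests of a difference in furan effect between preservations, which did not pair the pieces of a liver, passed for the 10 genes.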

How the results depend on the processing

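The count of bile acid genes called with furan in FFPE 18 h tissue was 2, and 0 in a fit over all 24 libraries. In FFPE 3 weeks tissue it was 0, and 1 with the DESeq2 test and 3 in the fit over all 24 libraries. Leaving out single libraries gave 2 to 4 in FFPE 18 h tissue and 0 to 2 in FFPE 3 weeks tissue, both highest without furan animal 41, and 0 in frozen tissue each time. Without control animal 2 Nr0b2 and without control animal 6 Hsd3b7 were also called in FFPE 18 h tissue. The cause was not tested.

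With the animal as replicate block over all 24 libraries the counts were 9 for FFPE 18 h over frozen, 9 for FFPE 3 weeks over frozen and 7 for FFPE 3 weeks over FFPE 18 h, against 8, 9 and 5 without it. On the 16 libraries of each pair, chosen after seeing the data, the block gave 10, 9 and 9, adding Nr0b2 for FFPE 18 h over frozen and Akr1d1 and Baat between the fixations (adjusted p = 0.0414, 0.0242 and 0.0136). Apart from these and the calls of Cyp7a1 and Cyp7b1 given beside their results, the block changed no other call. Of values called in either setting, none changed sign under any alternative. Thinned to equal totals, Nr0b2 lost its call for FFPE 3 weeks over frozen (adjusted p = 0.0575). With DESeq2 size factors Hsd3b7 lost its call between the fixations (adjusted p = 0.0614). In FFPE 3 weeks tissue control libraries held as few as 9 counts of Nr0b2. The part of depth in its values was not tested.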

Other observations

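After subtraction of each preservation's mean, genes among the 5 most like Cyp7a1 over the 24 libraries were Alas1, Errfi1, Arid5b and Etnk2, with Pearson's r of log2 CPM from 0.87 to 0.92 among 11298 genes. Those most like Cyp8b1 were Rtfdc1, Pank1, Scap, Fam73b and Pgm2 (r from 0.83 to 0.88), and those most like Nr0b2 were Ube2z, Atp8b5, Tceb3, Dis3 and Prdx3 (r from 0.81 to 0.86). The 24 libraries come from 8 livers and share their treatment, and these values are descriptions without a test.

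Among the 10 genes, measured the same way, the highest r was 0.66, between Akr1d1 and Baat, followed by 0.65 between Cyp27a1 and Slc27a5 and 0.64 between Cyp8b1 and Cyp27a1. The lowest was -0.66, between Cyp7a1 and Acox2. Cyp7a1 and Cyp8b1, the start and the branch point of the classic route, had r of -0.22, and Cyp7a1 and Nr0b2 -0.46. Between animals of 1 group Cyp7a1 spanned 2.17-fold to 3.41-fold, and Slc27a5 1.07-fold to 1.24-fold. Nr0b2 spanned 1.46-fold to 5.08-fold.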
